A study of Mus musculus with 12 samples.

Results

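Acpp, Top1mt, Fam78b, Metrnl, Mgat5b and Abca5 are 6 genes that read lower in the glomeruli of mice lacking Dach1 in podocytes than in control glomeruli, both in untreated mice and after streptozotocin. They were chosen by symbol, with the knockout and control values of these same libraries known, and all 6 were found among the 13475 genes listed in both arms of the study (13480 genes at baseline, 16293 after streptozotocin). The knockout-against-control values that follow are therefore a description, and the fitted p-values of that contrast are given only to show how the genes were chosen.

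Glomerular RNA was sequenced from 12 C57BL/6 mice in 4 groups of 3 different mice. The KO baseline group was a podocyte-specific DACH1 KO and the control baseline group its control, both untreated and 10 weeks old. The KO STZ group was likewise labelled a podocyte-specific DACH1 KO and the control STZ group a control. Both were made diabetic with streptozotocin (STZ), which is toxic to pancreatic beta cells. The STZ dose was 50 µg per g on each of 5 days in a row, and glomeruli were taken 10 days after STZ. The age of the STZ mice is not given in the sources used here. The labels name no driver or allele for the deletion, and the titles call the STZ controls hetN and the baseline controls Ctrl, without explaining hetN. Whether both control groups share a genotype is therefore not given. Glomeruli hold podocytes, endothelial, mesangial and parietal cells, so in these bulk samples fewer cells of a type and less RNA per cell cannot be told apart. Totals ran from 2.26e+07 to 2.49e+07 counts per library at baseline and from 6.61e+07 to 7.86e+07 after STZ. Levels are given as CPM, counts scaled to a common library size, on 1 scale over the 12 libraries, and fold changes come from fits within the groups compared.

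DACH1 is a nuclear protein that binds chromatin and regulates transcription, known mostly as a repressor, and podocytes are the epithelial cells whose foot processes carry the slit of the glomerular filter. The 6 genes belong to no common pathway. Acpp encodes prostatic acid phosphatase, a membrane-bound enzyme that in mouse sensory neurons takes the phosphate off extracellular AMP and so yields adenosine. Mgat5b encodes a Golgi N-acetylglucosaminyltransferase known from the brain, which branches O-mannosyl glycans. Top1mt encodes the topoisomerase that relaxes mitochondrial DNA, Abca5 a lysosomal and late endosomal ATP-binding cassette transporter linked to cholesterol handling, and Metrnl the secreted meteorin-like protein, a cytokine of muscle, fat and immune cells. Fam78b is named for its sequence family.

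The genes lie on 4 chromosomes (GRCm38, GENCODE M21). Acpp lies on the minus strand of chromosome 9 from 104288251 to 104337748, Top1mt on the minus strand of chromosome 15 from 75657035 to 75678800, and Fam78b on the plus strand of chromosome 1 from 167001417 to 167091302. The other 3 share chromosome 11, with Abca5 on the minus strand from 110269369 to 110337716, Mgat5b on the plus strand from 116918863 to 116986948 and Metrnl on the plus strand from 121701544 to 121716306. The gap between Abca5 and Mgat5b is 6.58 Mb and that between Mgat5b and Metrnl 4.71 Mb. Top1mt overlaps the annotated antisense gene Gm15945. Whether the authors counted by strand is not given in the sources used here, so reads of the 2 could not be told apart if they did not.

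The promoters are shown because the genes were lower in the same libraries, and 4 of the 6 matched the RefSeq promoter table (GRCm38.p6) by symbol. Fam78b and Top1mt did not. Each line gives the 250 bases before the RefSeq start of the gene, 5′ to 3′ on the gene's strand, with capitals marking the GC box, GGGCGG on either strand. The RefSeq starts of Metrnl and Acpp lie inside the GENCODE spans of these genes. All of the Metrnl window and the last bases of the Acpp window therefore lie within the GENCODE gene.
Acpp (chr9:104337723-104337972, minus strand): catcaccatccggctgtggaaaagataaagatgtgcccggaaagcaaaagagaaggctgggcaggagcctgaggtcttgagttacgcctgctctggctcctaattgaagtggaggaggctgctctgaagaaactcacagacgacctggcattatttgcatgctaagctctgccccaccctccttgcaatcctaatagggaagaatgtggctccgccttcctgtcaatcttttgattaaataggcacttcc
Metrnl (chr11:121702177-121702426, plus strand): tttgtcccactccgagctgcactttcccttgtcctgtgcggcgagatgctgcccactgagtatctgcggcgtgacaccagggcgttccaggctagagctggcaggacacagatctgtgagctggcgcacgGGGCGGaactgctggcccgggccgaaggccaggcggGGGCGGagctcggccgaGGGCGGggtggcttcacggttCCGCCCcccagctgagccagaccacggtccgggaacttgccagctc
Mgat5b (chr11:116918613-116918862, plus strand): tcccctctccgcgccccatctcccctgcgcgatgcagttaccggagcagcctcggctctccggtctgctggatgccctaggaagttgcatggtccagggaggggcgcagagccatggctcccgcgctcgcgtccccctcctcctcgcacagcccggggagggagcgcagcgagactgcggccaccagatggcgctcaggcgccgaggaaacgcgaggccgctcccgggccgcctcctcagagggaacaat
Abca5 (chr11:110337717-110337966, minus strand): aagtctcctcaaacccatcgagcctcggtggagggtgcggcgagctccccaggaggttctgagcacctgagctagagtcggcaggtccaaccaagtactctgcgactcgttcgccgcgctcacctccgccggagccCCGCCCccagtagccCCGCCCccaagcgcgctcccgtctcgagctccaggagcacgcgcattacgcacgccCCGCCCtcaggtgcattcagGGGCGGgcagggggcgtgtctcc
The promoters of Mgat5b, Abca5 and Metrnl were rich in GC (70.8%, 69.2% and 68.4%) and held 25, 25 and 20 CpG dinucleotides, against medians of 52.4% and 6 over the 32851 promoters of the table. The Acpp promoter differed from these, with 50.4% GC and 5 CpG. The GC box occurred 4 times each in Metrnl and Abca5 and is found in 32.7% of all promoters. The other motifs searched on both strands had no match in the 4 windows, namely GTAAACA of forkhead factors (3.17% of promoters), TAATTA of homeobox factors (4.84%), the E-box CACGTG (6.02%), the CCAAT box (33.8%), the TATA box TATAAA (12.4%), GGAATG of TEAD factors (12.6%) and GCGTGGG of WT1 and EGR factors (4.30%). Motifs were matched letter by letter, none of them contains another, and a missing match says only that these letters are not in the window.

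Dach1, the targeted gene, was lower in each knockout library than in any control library of its arm. It was at 47.2, 56.7 and 59.3 CPM in KO baseline mice and at 162, 106 and 188 CPM in control baseline mice. After STZ it was at 55.8, 65.9 and 67.0 CPM in knockouts and at 145, 175 and 183 CPM in controls. The knockout means were 35.8% of the control mean at baseline and 37.5% after STZ, and the source of the remaining Dach1 counts was not tested.

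Acpp showed the lowest mean remaining share of the 6 genes in both arms. KO baseline mice had 22.5, 14.8 and 12.7 CPM of Acpp and control baseline mice 324, 196 and 267 CPM. After STZ, knockouts had 21.3, 21.3 and 65.6 CPM and controls 379.9, 382 and 288 CPM. The groups did not overlap in either arm, and the lowest control stood 8.69-fold above the highest knockout at baseline and 4.38-fold after STZ. The knockout mean was 6.36% of the control mean at baseline and 10.3% after STZ. KO STZ replicate 3 stood apart, at 18.8% of the control mean, while KO STZ replicates 1 and 2 were at 6.10% and 6.09%. The log2 fold change was -3.97 (SE 0.30) at baseline and -3.27 (SE 0.49) after STZ, and without KO STZ replicate 3 the STZ value was -4.04 (SE 0.22).

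Mgat5b and Fam78b were the least abundant of the set and were reduced to similar shares. Mgat5b stood at 2.44, 2.40 and 3.17 CPM in KO baseline mice, against 16.0, 14.5 and 22.9 CPM in control baseline mice. In the STZ arm it stood at 3.48, 2.74 and 2.13 CPM in knockouts, against 7.28, 11.1 and 21.7 CPM in controls. The controls of the STZ arm were widely spread, with replicate 3 at 21.7 CPM close to the highest baseline control, and yet no knockout reached the lowest control. The log2 fold changes of Mgat5b were -2.73 (SE 0.23) at baseline and -2.26 (SE 0.42) after STZ. Fam78b was at 2.13, 1.64 and 1.68 CPM in KO baseline mice and at 14.7, 8.02 and 10.9 CPM in control baseline mice, and after STZ at 1.46, 1.59 and 1.28 CPM in knockouts and 6.89, 10.2 and 5.62 CPM in controls. Its raw counts were 37 to 49 in KO baseline libraries and 93 to 125 in KO STZ libraries, so counting error weighs most on Fam78b, followed by Mgat5b (56 to 70 and 155 to 255 counts). The log2 fold changes of Fam78b were -2.62 (SE 0.27) at baseline and -2.39 (SE 0.26) after STZ.

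Top1mt was the most evenly reduced gene among KO baseline mice. They had 24.9, 27.5 and 29.0 CPM of Top1mt, and control baseline mice had 157, 110.3 and 129.6 CPM. After STZ, knockouts had 31.9, 27.3 and 54.0 CPM and controls 211, 215 and 244 CPM. KO STZ replicate 3, which was also the highest for Acpp, was the highest knockout library for Top1mt. The log2 fold change was -2.29 (SE 0.16) at baseline and -2.56 (SE 0.27) after STZ, and -2.91 (SE 0.17) after STZ without that library.

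Metrnl and Abca5 kept larger shares. Metrnl was at 31.9, 41.6 and 35.9 CPM in KO baseline mice and at 111, 86.7 and 126 CPM in control baseline mice, and after STZ at 44.0, 33.9 and 41.7 CPM in knockouts and at 106, 111 and 133 CPM in controls. Its log2 fold change hardly differed between the arms, at -1.56 (SE 0.17) at baseline and -1.55 (SE 0.14) after STZ. Abca5 was at 40.4, 35.0 and 31.3 CPM in KO baseline mice and at 108, 71.3 and 89.6 CPM in control baseline mice, and after STZ at 48.8, 41.0 and 45.8 CPM in knockouts and at 104, 105 and 83.2 CPM in controls. It had the smallest change of the set, with log2 fold changes of -1.34 (SE 0.18) and -1.11 (SE 0.14), and its groups still did not overlap in either arm.

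**Figure D1:**
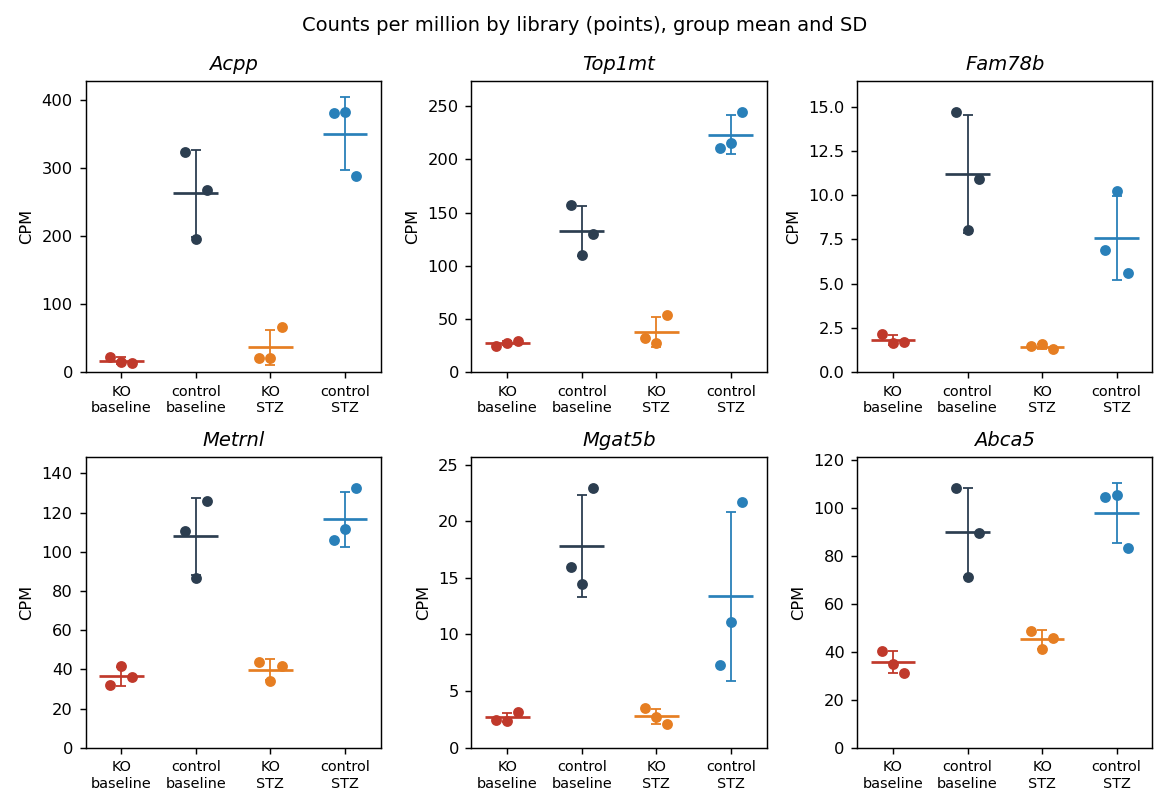
Each panel plots the level of 1 gene in CPM, on an axis from 0, for the 12 libraries as points, with the mean and SD of the 3 mice of each group. In both arms all knockout points lie under all control points, Acpp being at 12.7 to 22.5 CPM in KO baseline mice against 196 to 324 CPM in control baseline mice, and KO STZ replicate 3 is the highest knockout for Acpp and Top1mt.

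Ordered by the share left in knockouts at baseline, Acpp (6.36%) came first, followed by Mgat5b (15%), Fam78b (16.2%), Top1mt (20.5%), Metrnl (33.8%) and Abca5 (39.6%). After STZ the order was Acpp (10.3%), Top1mt (16.9%), Fam78b (19.0%), Mgat5b (20.8%), Metrnl (34.2%) and Abca5 (46.3%). The shares of single KO baseline mice ran from 13.5% to 17.8% for Mgat5b and from 14.6% to 19.0% for Fam78b, so these neighbours overlapped, whereas Acpp (4.85% to 8.59%) overlapped with none of the other 5 at baseline. Metrnl (29.6% to 38.5%) and Abca5 (34.8% to 45%) overlapped with each other and with Dach1 itself (31.1% to 39.0%). After STZ Acpp (6.09% to 18.8%) overlapped with Top1mt (12.2% to 24.2%), Fam78b (16.9% to 20.9%) and Mgat5b (16.0% to 26.0%). In KO STZ replicate 3 Acpp lay above Fam78b and Mgat5b. In each knockout mouse of both arms, Acpp, Mgat5b, Fam78b and Top1mt lay below the range of Dach1, which was 33.3% to 40.0% after STZ. Per kb of annotated exon, the order of the levels in control baseline mice was another one, with means of 68.0 CPM per kb for Metrnl, 64.8 for Top1mt, 35.8 for Acpp, 7.85 for Abca5, 3.87 for Mgat5b and 1.77 for Fam78b. The SDs of the Metrnl and Top1mt levels (12.5 and 11.5 CPM per kb, n = 3 each) exceeded the difference between their means. In control STZ mice Top1mt was first, at 109 ± 8.99 CPM per kb, and Metrnl second, at 73.5 ± 8.91 CPM per kb (SD, n = 3).

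**Figure D2:**
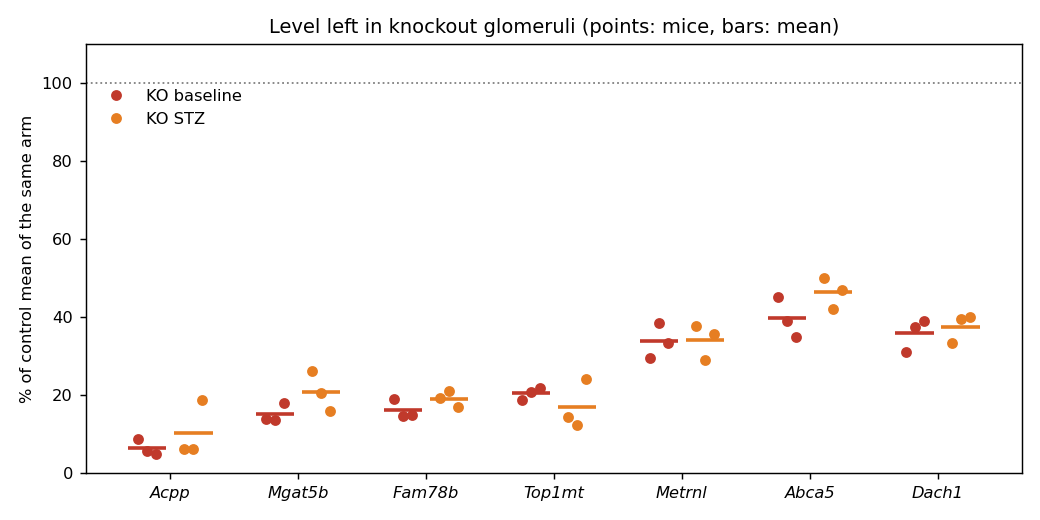
The level in each knockout mouse is plotted as a percentage of the control mean of the same arm, from 0 to 100%, for KO baseline and KO STZ mice, with bars at the mean of 3 mice and Dach1 at the right. The mean of Acpp is lowest, at 6.36% at baseline and 10.3% after STZ, and Metrnl and Abca5 lie near Dach1 at 35.8% and 37.5%.

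The choice of genes can be read from the fits over all genes. With edgeR's quasi-likelihood test and Benjamini-Hochberg adjustment over all genes, 5 of the 6 genes were called lower at an adjusted p under 0.05 at baseline, where 0.0594% of all tested genes were called lower (8 of 13475). After STZ 5 of the 6 were called lower, where 0.233% of all tested genes were (38 of 16291). Abca5 missed the threshold at baseline (adjusted p = 0.0762) and Mgat5b missed it after STZ (adjusted p = 0.0763). Of the 13470 genes tested in both arms 4 were called lower in both (0.0297%), namely Acpp, Top1mt, Fam78b and Metrnl. Just outside the set stood Slc26a7, an anion transporter gene (adjusted p = 0.0682 at baseline and 0.00147 after STZ), Gja3, a connexin gene (0.0757 and 0.0387), and Fgfbp1, which encodes a binding protein of fibroblast growth factors (0.0321 and 0.0565). These 3 had adjusted p-values at the failed threshold below those of Abca5 and Mgat5b. Since the genes were chosen on these values, nothing is read from them here. At baseline 6.83% of all genes had all 3 knockouts under all 3 controls, and after STZ 7.04%, against 6 of the 6 chosen genes in each arm.

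The STZ effect was not used in the choice, although the same libraries enter it. None of the 6 genes passed for STZ against baseline in knockouts or in controls in edgeR's quasi-likelihood test, where 0.178% and 0.23% of all genes were called in either direction. At an unadjusted p under 0.05 the counts were 0 of 6 in knockouts (14.7% of all genes) and 1 of 6 in controls (12.6%). DESeq2 called 0 of 6 in knockouts (804 genes in all) and 1 of 6 in controls (410 genes in all). That gene was Top1mt, with a mean of 223 ± 18.4 CPM in control STZ mice and 132 ± 23.5 CPM in control baseline mice (SD, n = 3 each). Its log2 fold change for STZ in controls was 0.72 (95% interval 0.35 to 1.09, adjusted p = 0.192 with edgeR and 0.00483 with DESeq2), and all 3 control STZ values lay above all 3 control baseline values, and Top1mt was the 1 of the 6 genes whose control groups did not overlap (20.3% of all genes in either direction). In knockouts Top1mt averaged 37.7 ± 14.3 CPM after STZ and 27.1 ± 2.09 CPM at baseline (SD, n = 3 each), a log2 fold change of 0.45 (95% interval -0.17 to 1.08) that was 0.10 without KO STZ replicate 3. In knockouts 2 of the 6 genes had STZ and baseline values that did not overlap (22.4% of all genes), namely Abca5, higher after STZ, and Fam78b, lower after STZ.

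For the other 5 genes the intervals of the STZ effect included 0. In controls they were widest for Mgat5b (log2 fold change -0.45, 95% interval -1.39 to 0.49) and Fam78b (-0.60, -1.31 to 0.12), and narrowest for Metrnl (0.08, -0.31 to 0.47), followed by Abca5 (0.09, -0.34 to 0.53) and Acpp (0.39, -0.13 to 0.90). In knockouts the largest value was that of Acpp, at 1.08 (-0.14 to 2.31), which was 0.32 without KO STZ replicate 3. The others were Abca5 (0.32, -0.02 to 0.66), Metrnl (0.11, -0.23 to 0.44), Mgat5b (0.04, -0.55 to 0.63) and Fam78b (-0.36, -0.94 to 0.22). The Mgat5b value in controls was -0.16 without control STZ replicate 1 and -0.97 without control STZ replicate 3. A change of Metrnl of more than 1.38-fold upward in controls lay outside its interval, while for Mgat5b a fall to 0.382 of the baseline level lay within it. STZ and baseline libraries also differed in depth, in which genes were listed and in the title of their controls, and the age of the STZ mice is not given. The treatment therefore cannot be told apart from the sequencing set, from age or, in controls, from what hetN stands for. Cell type markers differed between the same libraries. Immune cell markers had a median log2 fold change for STZ over baseline of 1.83 in knockouts (0 of 11 negative) and 2.31 in controls (0 of 11 negative). Mesangial markers had medians of -0.75 in knockouts (11 of 12 negative) and -0.77 in controls (12 of 12), and podocyte markers 0.26 (1 of 32 negative) and 0.20 (7 of 32). Proximal tubule markers had -1.06 in knockouts (20 of 20 negative) and 0.20 in controls (6 of 20). Endothelial markers had -0.52 in knockouts (14 of 15 negative) and -0.32 in controls (12 of 15). In edgeR's quasi-likelihood test 1 of these genes was called, a mesangial marker in controls. In knockouts an unadjusted p under 0.05 was reached by 10 immune, 10 mesangial, 8 endothelial, 7 podocyte and 1 proximal tubule markers (14.7% of all genes). In controls the counts were 9, 9, 3, 5 and 1 in the same order (12.6% of all genes). DESeq2 called 9, 8, 4, 5 and 1 in knockouts (804 genes in all) and 2, 7, 1, 2 and 0 in controls (410 genes). The part of cell composition in the STZ values of the 6 genes was not tested.

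How alike the knockout effect was in both arms was measured by the interaction, the knockout effect after STZ minus that at baseline, fitted on all 12 libraries. The shared direction is fixed by the choice of the genes. The choice also limits the difference in size, since a gene lower in 1 arm alone could not enter the set. The counts and intervals below therefore describe the 6 genes and are no independent test of likeness between the arms. The arms also differ in sequencing set and in the title of their controls, and the age of the STZ mice is not given. None of the 6 passed in edgeR's quasi-likelihood test (0.00742% of all genes did). None had an unadjusted p under 0.05, which 3.68% of all genes had, and none was called by DESeq2, which called 31 genes in all. The difference was 0.02 for Metrnl (95% interval -0.50 to 0.53), 0.22 for Abca5 (-0.29 to 0.73), 0.23 for Fam78b (-0.61 to 1.07), 0.47 for Mgat5b (-0.67 to 1.62), 0.70 for Acpp (-0.60 to 2.00) and -0.28 for Top1mt (-0.98 to 0.43), each on the log2 scale with an adjusted p of 0.975 for the others and 1.00 for Metrnl. For Metrnl the interval bounds any difference between the arms at 1.44-fold upward and 0.709-fold downward, whereas for Acpp it reaches 3.99-fold, so that equal effects are not shown for Acpp. Without KO STZ replicate 3 the difference was -0.06 for Acpp and -0.63 for Top1mt. For Mgat5b it was 0.18 without control STZ replicate 1 and 1.00 without control STZ replicate 3.

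**Figure D3:**
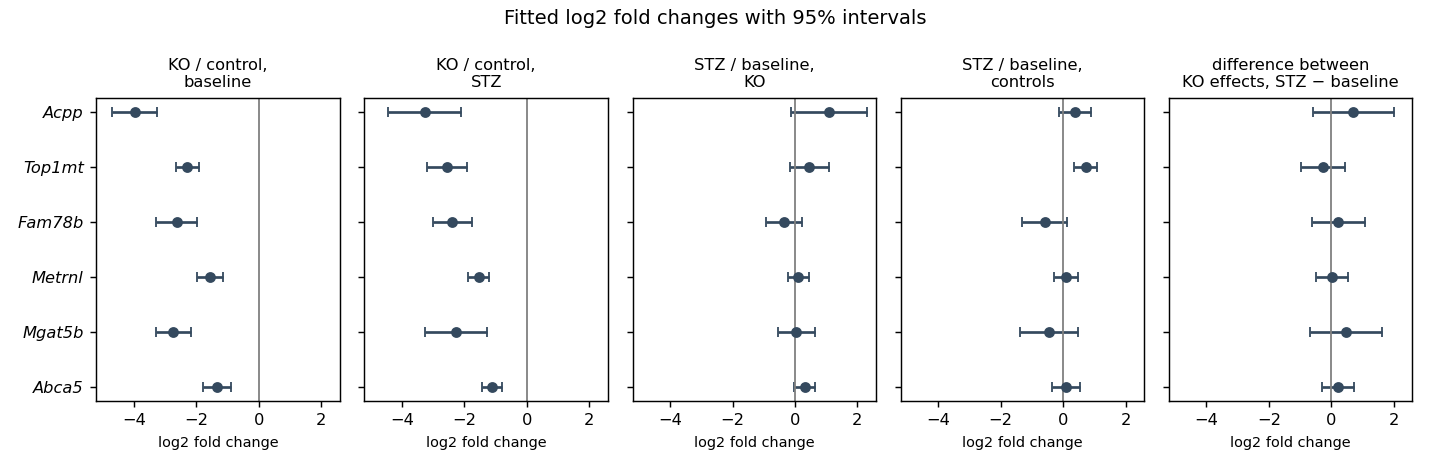
Log2 fold changes of the 6 genes with 95% intervals are shown for KO over control in each arm, for STZ over baseline in knockouts and in controls, and for the difference between the knockout effects. In the first pair of panels, on which the genes were chosen, all intervals lie below 0, and in the other panels the interval of Top1mt in controls (0.35 to 1.09) is the 1 that does not include 0.

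Within groups the genes did not vary as a block. Over the 15 pairs, the correlation of deviations from the group mean of log2 CPM (12 libraries that share 4 group means) ran from -0.44 for Acpp and Mgat5b to 0.78 for Fam78b and Abca5, and was positive for 9. Acpp and Top1mt stood at 0.73, with 0.28 among the baseline and 0.87 among the STZ libraries. In KO STZ replicate 3 they deviated by 1.08 and 0.58 on the log2 scale. In that library Mgat5b and Fam78b deviated the other way, by -0.35 and -0.16, and Dach1 by 0.10. Among the KO STZ mice, replicate 3 had the highest summed podocyte markers (48645 CPM against 46191 and 46817 CPM) and immune cell markers (475 against 170 and 436 CPM). Its summed mesangial markers were the lowest (2663 against 3221 and 3780 CPM). Its proximal tubule (2977 against 11171 and 2879 CPM), endothelial, parietal and later tubule sums lay between those of the other KO STZ mice. The part of these and other differences in its Acpp and Top1mt values was not tested.

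Of the genes around the 6, Rhpn1 beside Top1mt was the 1 that edgeR called. Within 500 kb on either side lay 67 listed genes, of which 57 were tested at baseline and 67 after STZ. In edgeR's quasi-likelihood test 1 of the 57 was called at baseline, where 0.23% of all genes were called in either direction, and 0 of the 67 after STZ, where 1.07% were. An unadjusted p under 0.05 was reached by 5 of 57 and 4 of 67 (6.92% and 9.08% of all genes), and DESeq2 called Rhpn1 and Abca9 at baseline, among 220 genes in all, and Rhpn1 after STZ, among 564. Their median log2 fold change was 0.04 at baseline and -0.06 after STZ, against 0.01 and -0.02 over all genes.

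Rhpn1 starts 25.5 kb from Top1mt on the opposite strand, and it encodes rhophilin-1, a podocyte protein that restrains actomyosin contraction. Rhpn1 was at 113, 142 and 120.5 CPM in KO baseline mice and at 355, 401 and 327 CPM in control baseline mice (log2 fold change -1.53, SE 0.13, adjusted p = 0.0179). After STZ it was at 266, 161 and 337 CPM in knockouts and at 547, 575 and 723 CPM in controls (-1.27, SE 0.27, adjusted p = 0.121). Knockouts lay below controls without overlap in both arms (6.83% and 7.04% of all genes), and edgeR called Rhpn1 at baseline but not after STZ. The 3 mice of each STZ group had the same order for Top1mt as for Rhpn1, with replicate 3 highest and replicate 2 lowest among KO STZ mice, while at baseline the orders differed. On the other side of Top1mt, the nearest listed gene was Zfp41 at 27.2 kb, with log2 fold changes of -0.13 and -0.17.

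None of the nearest listed neighbours of the other 5 genes passed in either arm. Dnajc13, 25.3 kb from Acpp, had log2 fold changes of 0.26 at baseline and -0.11 after STZ, and Cpne4 on its other side, at 209.5 kb, 0.28 and 0.82, without passing. B3gntl1, 28.4 kb from Metrnl, had -0.09 and -0.27, and Mfsd11, 43.2 kb from Mgat5b, 0.26 and 0.25. Snhg20 on the other side of Mgat5b was listed after STZ and had -0.84 (adjusted p = 0.733). Uck2, 132 kb from Fam78b, had -0.75 and -0.49 (adjusted p = 0.548 and 0.684), while Gm16701, 1.69 kb from Fam78b and listed after STZ, had 0.00.

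Abca5 lies at the end of a row of related transporter genes. Abca6, 17.6 kb away, had log2 fold changes of 0.10 (SE 0.14) at baseline and 0.00 (SE 0.21) after STZ, and Abca8a (0.01 and 0.21) and Abca8b (0.18 and 0.03) were also near 0. Abca9 had -0.71 (SE 0.14, adjusted p = 0.253) at baseline and -0.38 (SE 0.40, adjusted p = 0.912) after STZ. Abca6 differed by arm where Abca5 differed by genotype. It was at 1.72, 1.81 and 1.60 CPM in KO STZ mice against 10.7, 9.60 and 9.60 CPM in KO baseline mice, and at 2.10, 1.36 and 1.68 CPM in control STZ mice against 10.6, 8.32 and 8.90 CPM in control baseline mice. For STZ against baseline Abca6 fell by 2.57 in knockouts (adjusted p = 0.00607) and by 2.47 in controls (adjusted p = 0.0144) on the log2 scale in edgeR's quasi-likelihood test. On the other side of Abca5, 61.4 kb away, Map2k6 had log2 fold changes for knockout over control of 0.31 and 0.11.

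**Figure D4:**
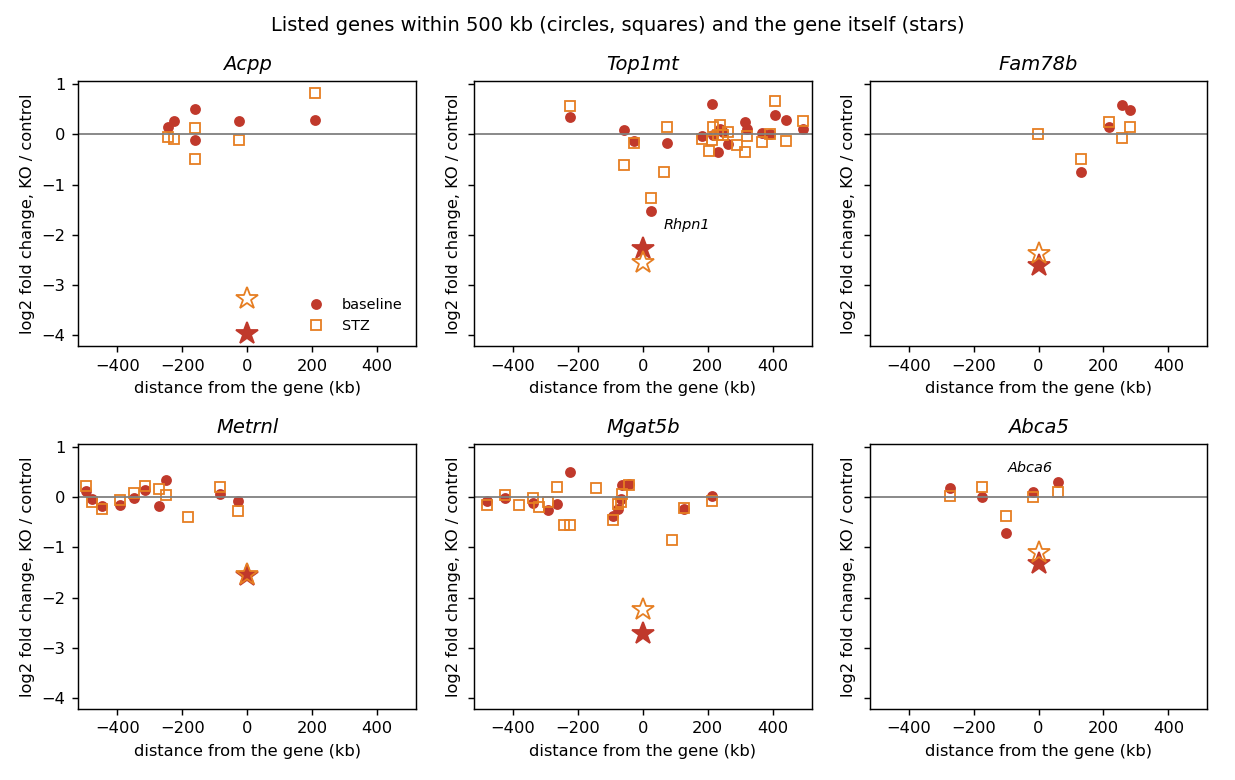
Log2 fold changes of KO over control, at baseline and after STZ, are plotted for each listed gene within 500 kb against its distance in kb from the gene named above the panel, with that gene as a star at 0. Rhpn1, 25.5 kb from Top1mt, is the lowest neighbour (-1.53 and -1.27), and Abca6 lies near 0 beside Abca5.

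The pathways and families of the 6 genes were described through 7 lists. The lists held 111 listed genes, of which 0 of 107 were called at baseline and 1 of 111 after STZ in edgeR's quasi-likelihood test. At baseline 8 of 107 had an unadjusted p under 0.05 (6.92% of all genes did) and DESeq2 called Abca9, and after STZ 16 of 111 did (9.08% of all genes) and DESeq2 called Abca2, Alpl, Dag1, Fut8, Lamp1 and Pxylp1. The median log2 fold change was 0.06 at baseline and 0.00 after STZ. The 1 called gene was Abca2, a lysosomal transporter of the same family as Abca5, which was higher in KO STZ mice than in control STZ mice (log2 fold change 0.70, SE 0.11, adjusted p = 0.0481), in the direction in which 0.841% of all genes were called.

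Around Acpp, 0 of 17 ectonucleotidase and adenosine genes were called at baseline and 0 of 19 after STZ, with medians of 0.17 and -0.03, and 0 of 5 other acid phosphatase genes in each arm, with medians of 0.12 and 0.01. Acp2, the lysosomal acid phosphatase gene, had 0.12 and 0.33. Around Top1mt, 0 of 29 and 0 of 30 genes of mitochondrial DNA maintenance and of other topoisomerases were called, and their log2 fold changes stayed within -0.27 to 0.41 at baseline and -0.38 to 0.23 after STZ. Top1, the nuclear counterpart of Top1mt, had -0.01 and -0.07. Around Mgat5b, 0 of 27 genes of N-glycan branching and O-mannosyl glycans were called in either arm, with medians of 0.05 and 0.04, and Mgat5, its paralogue that branches N-glycans, had -0.15 and -0.28. The ABCA and sterol transport list had medians of 0.10 (0 of 23 called) and 0.13 (1 of 24 called). Metrn, the paralogue of Metrnl, had 0.13 and 0.08, with 0 of 5 genes of its list called in either arm, and Fam78a, the paralogue of Fam78b, had -0.17 and 0.04.

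**Figure D5:**
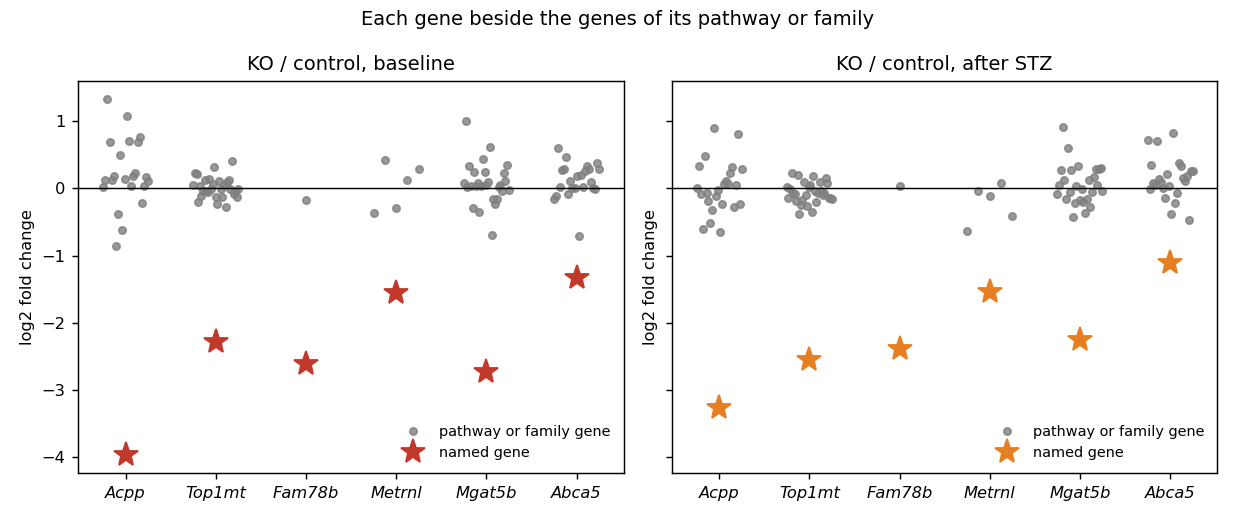
Log2 fold changes of KO over control are plotted for each of the 6 genes as a star and for the genes of its pathway or family as grey points, at baseline and after STZ. The stars lie below all grey points of their column, from -1.11 for Abca5 after STZ to -3.97 for Acpp at baseline.

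Markers of the glomerular cell types were measured beside these values. All 32 podocyte markers were listed with no 0 in any library, and their summed level was 29850 to 35139 CPM in KO baseline mice against 31185 to 41284 CPM in control baseline mice, and 46191 to 48645 CPM in KO STZ mice against 42259 to 52841 CPM in control STZ mice. Their median log2 fold change was -0.17 at baseline and -0.08 after STZ, with Dach1 among the 32. In edgeR's quasi-likelihood test 2 of the 32 were called at baseline (1 higher and 1 lower, the lower being Rhpn1). After STZ 5 of the 32 were called (1 higher and 4 lower). Over all genes 0.23% and 1.07% were called in either direction. Of the 32, 11 at baseline and 16 after STZ had an unadjusted p under 0.05 (6.92% and 9.08% of all genes), and DESeq2 called 8 and 11. The summed proximal tubule markers (20 of 20 listed, none at 0) ran from 2148 to 25461 CPM in KO baseline mice against 3131 to 5760 CPM in control baseline mice, and from 2879 to 11171 CPM in KO STZ mice against 2452 to 11397 CPM in control STZ mice. All 20 read higher in KO baseline than in control baseline mice, with a median log2 fold change of 1.03, against -0.06 after STZ (16 of 20 negative), and 0 of 20 passed or had an unadjusted p under 0.05 in either arm, with 0 called by DESeq2. When the mean level of the proximal tubule markers was added to the fit, the log2 fold changes of the 6 genes ran from -1.23 to -3.80 at baseline and from -1.11 to -3.41 after STZ. With this covariate Mgat5b after STZ passed in edgeR's quasi-likelihood test (-2.02, adjusted p = 0.0111), and the genes called in all rose from 175 to 327. The 6 genes were chosen on this contrast, so nothing is read from that call. Medians of the endothelial (-0.04 and -0.21), mesangial (-0.08 and 0.03), parietal (0.07 and -0.11), later tubule (0.62 and -0.17) and immune cell markers (-0.04 and -0.39) had no gene called in either arm by edgeR's quasi-likelihood test. An unadjusted p under 0.05 was reached by 1, 0, 1, 3 and 0 of them at baseline and by 3, 0, 1, 0 and 0 after STZ, and DESeq2 called Cldn5 and Ncam1 in both arms. The part of cell composition in the lower values was not tested.

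The genes whose log2 CPM followed the mean standardised profile of the 6 most closely over the 12 libraries were Slc26a7 (Pearson r = 0.98), Dach1 (0.97), Tbc1d1 (0.97), Nap1l1 (0.96) and Vtcn1 (0.96). These libraries fall into knockouts and controls, so the values describe a shared pattern over 4 groups and carry no test. Slc26a7 had the closest profile, at 3.88, 2.40 and 2.94 CPM in KO baseline mice against 17.5, 12.7 and 28.0 CPM in control baseline mice, and at 3.49, 3.97 and 3.70 CPM in KO STZ mice against 22.5, 23.7 and 18.9 CPM in control STZ mice. Dach1, which was not among the 6, was second of the 13465 genes ranked. Tbc1d1 encodes a Rab GTPase-activating protein, Nap1l1 a nucleosome assembly protein and Vtcn1 a ligand that restrains T cells, with log2 fold changes of -0.81, -0.91 and -1.47 at baseline and -0.71, -0.96 and -1.63 after STZ.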

How the data were processed

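Per the labels' protocols, magnetic beads perfused through the heart were used to isolate glomeruli, whose total RNA was sequenced. The authors deposited 1 table per library of estimated counts per gene symbol, not scaled to depth. BWA and mm10 are named, with no role, per the submitters' processing notes. No counting tool, annotation or strand setting is given in the sources used here. Some values end in a fraction (6 of 12 for Acpp, 0 of 60 for the other 5 genes), so all were rounded to whole numbers before a count model. The tables held no 0, and 18 blanks were read as 0. Replicate pairs differed beyond sampling noise (chi-square per degree of freedom 42.0 to 352 over 12 pairs). The labels give no culture, litter or pairing beyond different mice.

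In R 4.3.3 with edgeR 4.0.16, genes passing filterByExpr were scaled with TMM factors, and glmQLFTest gave p-values, adjusted by Benjamini-Hochberg over all tested genes and called under 0.05. Standard errors come from the F statistic and 95% intervals from its degrees of freedom. DESeq2 1.42.0, RLE factors, no filter, rounding down, a proximal tubule covariate and leaving out each mouse were alternatives. CPM use TMM factors over the 12 libraries. Log2 CPM use a prior count of 2. Steps were tested on simulated data. The genes, lists and comparisons were chosen with earlier results of these data known. Genes were named by a rule: the 6, Dach1, called pathway or neighbouring genes, paralogues, nearest neighbours and the 5 closest profiles (mean of at least 1 CPM), of which 1 is not reported here. Of the genes called lower in 1 arm those nearest to the threshold were named after their values were seen. Promoters and starts come from RefSeq, exon lengths from GENCODE M21.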

Additional observations from a re-analysis of the deposited data

How the results depend on the processing

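All 72 knockout log2 fold changes of the 6 genes with 1 mouse left out, and all 60 under the other settings, were negative. The sign carries no test, since genes lower in both arms were chosen and each knockout lay below each control of its arm. Calls were less stable. With 1 mouse left out, 0 to 4 of the 6 genes were called at baseline and 1 to 4 after STZ, and 39 of the 72 values lost a call (Metrnl at baseline in each of 6 fits, adjusted p up to 0.193). The 72 include the values of Abca5 at baseline and Mgat5b after STZ, which had no call to lose. Over all genes, leaving out 1 mouse gave 4 to 51 calls at baseline (31 with all mice), 40 to 109 after STZ (175), 4 to 12 for STZ in controls (31), 1 to 10 for STZ in knockouts (24) and 0 to 2 for the interaction (1). DESeq2 called 220, 564, 410, 804 and 31 genes, and the proximal tubule covariate gave 54, 327, 54, 280 and 0. RLE factors gave 2 for the interaction. DESeq2 called all 6 genes in both arms, on the contrasts they were chosen on, and 1 of 6 (Top1mt) for STZ in controls. The causes were not tested. Leaving out 1 mouse turned the sign of small, uncalled values. The log2 STZ effect in controls ran from -0.053 to 0.21 for Metrnl and -0.049 to 0.25 for Abca5, and in knockouts from -0.15 to 0.19 for Mgat5b. The interaction ran from -0.12 to 0.15 for Metrnl, -0.062 to 0.98 for Acpp and -0.012 to 0.51 for Fam78b. No paired analysis was possible because the labels tie no mouse of 1 group to a mouse of another, and the replicate numbers used here only name mice.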

Other observations

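Some genes that are not among the 6 followed their mouse-to-mouse deviations within groups. Group means are taken out of these deviations, so the ranking says nothing about a knockout effect. Measured against the mean standardised deviation of the 6 genes from their group means (12 libraries sharing 4 group means), high Pearson r were those of Chrnb1, a subunit gene of the muscle acetylcholine receptor (0.93), Gm9833 (0.90), Arnt2 (0.90) and E2f1 (0.88). Their log2 fold changes of knockout over control were -0.08, -0.11, 0.12 and -0.59 at baseline and 0.82, 0.12, 0.23 and 0.31 after STZ, and 1 of these 4, Chrnb1 after STZ (adjusted p = 0.0355 in edgeR's quasi-likelihood test), was called. These values are the top of a ranking of all expressed genes and carry no test.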
